A study of Mus musculus with 12 samples.

Results

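Optic nerves of mice given carboplatin were compared with optic nerves of mice given selumetinib, gene by gene. The comparison used the 3 carboplatin and the 3 selumetinib libraries, chosen by their treatment label, which are 6 of the 12 libraries in the series. As controls there were 6 libraries of mice that received phosphate-buffered saline (PBS). By their titles all 12 libraries, PBS included, came from NF1 mice, and the labels give the tissue as optic nerve and the cell type as nerve cells. The allele, the promoter that drives any deletion, the strain, the age and sex of the mice, the doses and the schedule are not in the labels. Whether each library is a separate animal is also not stated, so the p-values only reflect spread among libraries, some of which may be technical.

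The optic nerve carries the axons of retinal ganglion cells from the eye to the brain, wrapped in myelin by oligodendrocytes and supported by astrocytes, microglia and vessels. The cell bodies of neurons lie outside it, in the retina at one end and in the hypothalamus and other brain regions at the other. Nf1 encodes neurofibromin, which switches RAS off, so its loss raises signalling through RAF, MEK and ERK kinases. Gliomas of the optic pathway in children with neurofibromatosis are treated with carboplatin, whose platinum atom cross-links DNA, or with the MEK inhibitor selumetinib. The comparison asks how nerves differ after one drug and after the other.

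The libraries held between 21793052 and 33375754 counts. Levels are given in CPM, the usual depth-scaled count, with TMM factors, and of 35275 genes listed 18344 had enough counts to be tested. Selumetinib 3 stood apart from the other libraries of its group. Over the tested genes the Spearman correlation of log2 CPM was 0.990 between selumetinib 1 and 2, 0.918 to 0.933 between selumetinib 3 and these libraries, and 0.985 to 0.989 between selumetinib 3 and PBS 4 to 6. Neuron marker genes took 0.829% and 0.984% of counts in selumetinib 1 and 2, 0.146% in selumetinib 3, 0.0647% to 0.0862% in the carboplatin libraries and 0.0426% to 0.246% in PBS. Myelin and mature oligodendrocyte genes, the defining markers of the tissue, took 3.83% and 2.78% of counts in selumetinib 1 and 2 against 8.92% in selumetinib 3 and 8.07% to 9.85% in carboplatin. Photoreceptor genes took 0.107% and 0.187% of counts in carboplatin 1 and 3 and 0.0178% in carboplatin 2, against at most 0.00345% in selumetinib. Pigment epithelium genes were at 0.216% in carboplatin 2, above the 0.0213% and 0.0352% of carboplatin 1 and 3. Among the controls PBS 1 stood apart, with 6.22% of its counts from skeletal muscle genes. Y-linked counts were 0 in all 3 selumetinib libraries, in carboplatin 1 and in PBS 1, so in carboplatin 2 and 3 against selumetinib the drug and the presence of Y-linked RNA cannot be told apart.

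**Figure D1:**
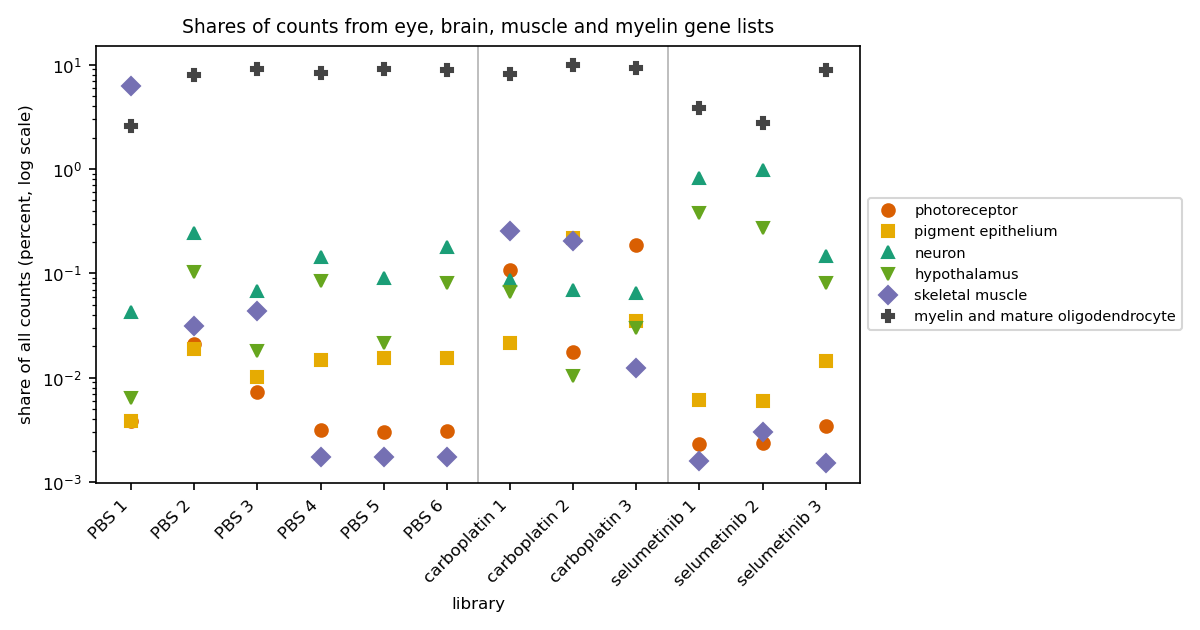
Share of all counts, in percent on a log axis, taken by 6 lists of marker genes in each of the 12 libraries, with 1 symbol per list. Neuron and hypothalamus genes are highest in selumetinib 1 and 2 (neuron genes 0.829% and 0.984%), photoreceptor genes in carboplatin 1 and 3 (0.107% and 0.187%), and selumetinib 3 lies near the PBS libraries.

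Of the 18344 genes tested, 2568 differed between carboplatin and selumetinib (14.0%, edgeR adjusted p under 0.05). In carboplatin 1036 were higher (5.65%) and 1532 were lower (8.35%). Of the higher genes 1028 had all 3 carboplatin libraries above all 3 selumetinib libraries, and of the lower genes 1454 had them all below. Over all tested genes 20.9% and 20.8% were so separated. The calls rest on the same libraries, so the separation is no separate check on them. The lower genes lay further from selumetinib 1 and 2 than from selumetinib 3: their median difference was -2.48 on the log2 scale against the former and -0.95 against the latter. For the higher genes these medians were 1.30 and 0.81. The median PBS library lay nearer the selumetinib mean for 695 of the 1036 higher genes and nearer the carboplatin mean for 1049 of the 1532 lower genes. It was nearer the selumetinib mean for 67.1% of the higher and 31.5% of the lower genes, against 45.5% of all tested genes. The median log2 fold change over all tested genes was -0.01.

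How many genes differed depended on the libraries used. With selumetinib 3 as the only selumetinib library and without PBS 1, a fit added after the data were seen, 516 genes were called, 278 higher (1.44%) and 238 lower (1.23%). This fit shares its carboplatin libraries with the whole comparison, and 201 of the 1036 higher and 124 of the 1532 lower genes were also called there in the same direction. With PBS 1 kept, selumetinib 3 alone gave 5 calls. In the sections below, against selumetinib 3 alone means the fit without PBS 1, which was added after the data were seen. It rests on 1 selumetinib library, so it is no independent check. Without PBS 1 the comparison of all 6 treated libraries called 5974 genes, and without selumetinib 1 or selumetinib 2 it called 134 or 148. Without carboplatin 1, 2 or 3 it called 292, 474 or 214, and without selumetinib 3 it called 4788. The deposited table lists PBS 1 to 3 before the carboplatin columns and PBS 4 to 6 before the selumetinib columns, though the labels name no batch. The difference of carboplatin from PBS 2 and 3 less that of selumetinib from PBS 4 to 6 was past the threshold for 275 genes, 202 higher (1.08%) and 73 lower (0.39%). Of 89 called genes followed through every setting, 20 stayed past the threshold whichever library was left out, and 69 lost it without at least 1 library. The 20 were Sgk1, Fkbp5, Tsc22d3, Map3k6, Ddit4, Klf9, Nfkbia, Cdkn1a, Bbc3, Sesn1, Bcl2l1, Mt1, Gstm1, Smox, Klf15, Ptpn11, Mfsd2a, Rom1, Abca4 and Tm7sf2. The strand setting of the counting was not given in the sources used here, so reads of overlapping genes may be mixed, as for Cdkn1a, Fkbp5, Hif3a, Plin4, Mt2, Sirt2, Araf and Tm7sf2.

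**Figure D2:**
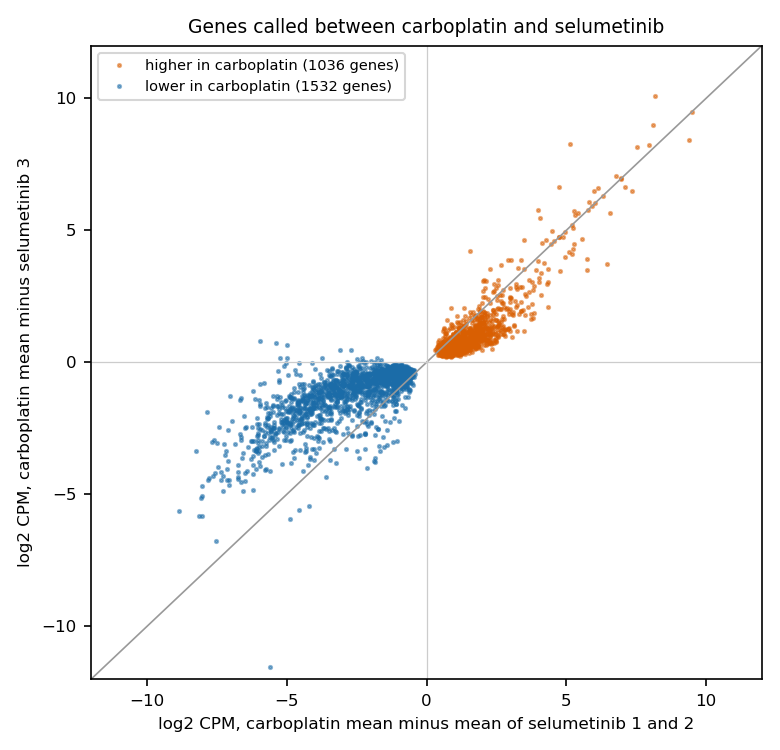
Each point is a gene called between the groups, orange for the 1036 higher and blue for the 1532 lower in carboplatin. The x axis gives the carboplatin mean minus the mean of selumetinib 1 and 2 and the y axis the carboplatin mean minus selumetinib 3, both in log2 CPM. Both axes share the carboplatin libraries, and the grey diagonal marks equal differences. Blue points lie mostly above the diagonal, with medians of -2.48 on the x axis and -0.95 on the y axis.

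Genes that respond to glucocorticoid hormone were higher in carboplatin. The hormone receptor binds DNA as a dimer at a palindromic element and switches on genes of stress, metabolism and immune restraint. Of 23 tested genes of the list, 17 were called higher and 0 lower, with a median log2 fold change of 2.57. Over all tested genes 5.65% were called higher, with a median of -0.01. Against selumetinib 3 alone 7 of the 23 were called higher, with a median of 2.07, and relative to PBS 2 and 3 and PBS 4 to 6 the number was 12. Without selumetinib 1 or selumetinib 2 it was 9. Sgk1, a serum and glucocorticoid-induced kinase, stood at 1245, 816 and 1191 CPM in carboplatin 1, 2 and 3 and 32.6, 28.9 and 58.5 CPM in selumetinib 1, 2 and 3 (log2 fold change 4.76 ± 0.64, adjusted p = 0.00486). Fkbp5, a chaperone that restrains the receptor, stood at 541, 234 and 532 CPM in carboplatin 1, 2 and 3 and 35.3, 22.9 and 54.4 CPM in selumetinib 1, 2 and 3 (log2 fold change 3.54 ± 0.49, adjusted p = 0.00515). For both genes every carboplatin library lay above every selumetinib and every PBS library, and selumetinib 3 was the highest of its group. The lowest, median and highest PBS libraries were at 55.6, 126 and 283 CPM for Sgk1 and 25.5, 47.4 and 69.1 CPM for Fkbp5.

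A further 3 members with known roles in the response were each separated between the drugs. Tsc22d3 encodes GILZ, an anti-inflammatory mediator of the hormone, and was at 289, 254 and 288 CPM against 72.8, 71.2 and 98.6 CPM (log2 fold change 1.78 ± 0.18, adjusted p = 0.00222). Map3k6, a stress kinase, was at 60.5, 25.3 and 53.4 CPM against 1.91, 2.73 and 3.12 CPM (log2 fold change 4.16 ± 0.56, adjusted p = 0.00486). Ddit4, an inhibitor of mTORC1, was at 464, 209.9 and 374 CPM against 31.5, 31.2 and 45.97 CPM (log2 fold change 3.27 ± 0.43, adjusted p = 0.00419). In each the carboplatin 2 level was the lowest of its group and still above all selumetinib libraries. The transcription factors Klf9 (1.76 ± 0.24) and Zbtb16 (2.63 ± 0.45), the NF-kB inhibitor Nfkbia (2.57 ± 0.36), the clock gene Per1 (1.67 ± 0.35), the lipid droplet gene Plin4 (5.23 ± 1.03) and Hif3a (4.00 ± 0.76) also rose on the log2 scale. Klf9, Zbtb16, Nfkbia and Per1 were not called against selumetinib 3 alone, where their adjusted p ran from 0.0533 for Klf9 to 0.137 for Zbtb16. Lcn2, a secreted iron carrier that also marks reactive astrocytes, was at 44.6, 10.1 and 23.7 CPM against 0.425, 0.533 and 0.385 CPM, a rise with a wide error (log2 fold change 5.85 ± 1.04, adjusted p = 0.0122).

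The promoter windows of list members were searched for the receptor's palindrome, and the 3 that hold it are shown because members of the list rose together. The letters were the half-sites GNACA and TGTNC with 3 bases of any kind between, which read the same on both strands, in windows from 250 bases before to 50 bases after the start (RefSeq, GRCm38.p6). Of 21 list genes with a window 3 held it (14.3%), against 145 of 27025 genes in all (0.537%) and 12 of 738 genes called higher in carboplatin (1.63%). The list was written from genes known to respond to the hormone, and the genes called higher include its members. A part of the element in the rises was not tested. The 3 were Sgk1 (chr10:21993640-21993939, plus strand), Map3k6 (chr4:133240568-133240867, plus strand) and the metallothionein gene Mt1 (chr8:94178839-94179138, plus strand). They are printed 5′ to 3′ with the matching letters in capitals, and a match is a description of the letters, not of binding.
Sgk1: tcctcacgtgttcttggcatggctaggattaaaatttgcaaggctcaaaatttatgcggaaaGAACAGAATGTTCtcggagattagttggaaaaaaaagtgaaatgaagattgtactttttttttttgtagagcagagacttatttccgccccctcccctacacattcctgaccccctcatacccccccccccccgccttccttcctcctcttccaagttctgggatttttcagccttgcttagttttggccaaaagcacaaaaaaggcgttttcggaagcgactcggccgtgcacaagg
Map3k6: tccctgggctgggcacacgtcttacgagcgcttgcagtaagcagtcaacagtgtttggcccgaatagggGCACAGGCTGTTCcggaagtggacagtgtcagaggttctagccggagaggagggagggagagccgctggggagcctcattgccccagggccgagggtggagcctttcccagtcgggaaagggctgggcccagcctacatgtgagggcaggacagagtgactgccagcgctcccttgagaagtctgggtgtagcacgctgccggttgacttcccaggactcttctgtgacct
Mt1: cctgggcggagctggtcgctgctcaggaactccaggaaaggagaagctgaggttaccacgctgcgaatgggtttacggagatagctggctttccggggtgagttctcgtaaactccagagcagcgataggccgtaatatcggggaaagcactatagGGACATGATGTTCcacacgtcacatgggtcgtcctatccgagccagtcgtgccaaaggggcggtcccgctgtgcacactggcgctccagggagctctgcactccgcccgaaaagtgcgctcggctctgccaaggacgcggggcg

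Targets of p53, the transcription factor that answers DNA damage, were in part higher in carboplatin. Of 30 tested targets 10 were called higher and 0 lower, with a median log2 fold change of 0.70, where 5.65% of all genes were higher. Against selumetinib 3 alone 2 were called higher, with a median of 0.36, and without any 1 carboplatin library, selumetinib 1 or selumetinib 2 the number was 3 to 5. Cdkn1a (ENSMUSG00000023067, chr17:29090976-29100727) encodes p21, an inhibitor of cyclin-dependent kinases, and is listed among targets of both p53 and the glucocorticoid receptor. It stood at 590.2, 282 and 436 CPM in carboplatin 1, 2 and 3 and 11.99, 14.6 and 26.00 CPM in selumetinib 1, 2 and 3, with PBS libraries from 14.1 to 90.8 CPM (log2 fold change 4.64 ± 0.67, adjusted p = 0.00667). Its lowest carboplatin library, carboplatin 2, lay above every PBS and selumetinib library, and the call held against selumetinib 3 alone (log2 fold change 4.05, adjusted p = 0.0255). Bbc3, which encodes the pro-death protein PUMA, was at 14.5, 14.1 and 15.7 CPM against 4.28, 4.37 and 5.52 CPM (log2 fold change 1.64 ± 0.24, adjusted p = 0.00704). Sesn1, a stress-induced inhibitor of mTORC1, was at 200.1, 128 and 207 CPM against 53.9, 58.4 and 81.6 CPM (log2 fold change 1.46 ± 0.22, adjusted p = 0.00707). The differences of Mdm2, the ubiquitin ligase that degrades p53 (0.53 ± 0.16), and of the pore-forming Bax (0.68 ± 0.16) were smaller.

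Genes on both sides of apoptosis were among those higher in carboplatin. Of 21 tested regulators 5 were called higher and 1 lower, with a median of 0.27, where 5.65% of all genes were higher and 8.35% lower. Bcl2l1, which encodes the survival protein BCL-XL, had the smallest p of the list at 386, 330.3 and 366 CPM in carboplatin 1, 2 and 3 and 94.1, 86.5 and 118 CPM in selumetinib 1, 2 and 3 (log2 fold change 1.86 ± 0.20, adjusted p = 0.00231). Its carboplatin libraries lay within a narrow range, and the gene was also called against selumetinib 3 alone (adjusted p = 0.0034). The survival gene Mcl1 was at 231, 223 and 233 CPM against 88.2, 80.6 and 129.5 CPM (log2 fold change 1.21 ± 0.28, adjusted p = 0.0226). The called members thus held the survival genes Bcl2l1 and Mcl1 and the death genes Bbc3, Bax and Bmf, while Bok was lower. Of 27 tested genes of DNA repair and crosslink repair 4 were higher and 1 was lower, with a median of 0.02, where 14.0% of all genes were called. Xpc, a damage sensor of nucleotide excision repair and itself a p53 target, was at 31.6, 26.96 and 29.1 CPM against 15.7, 17.1 and 20.1 CPM (log2 fold change 0.73 ± 0.14, adjusted p = 0.0139). Of the Fanconi anaemia genes, which act on crosslinks, Fanca was higher and Fancd2 lower.

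**Figure D3:**
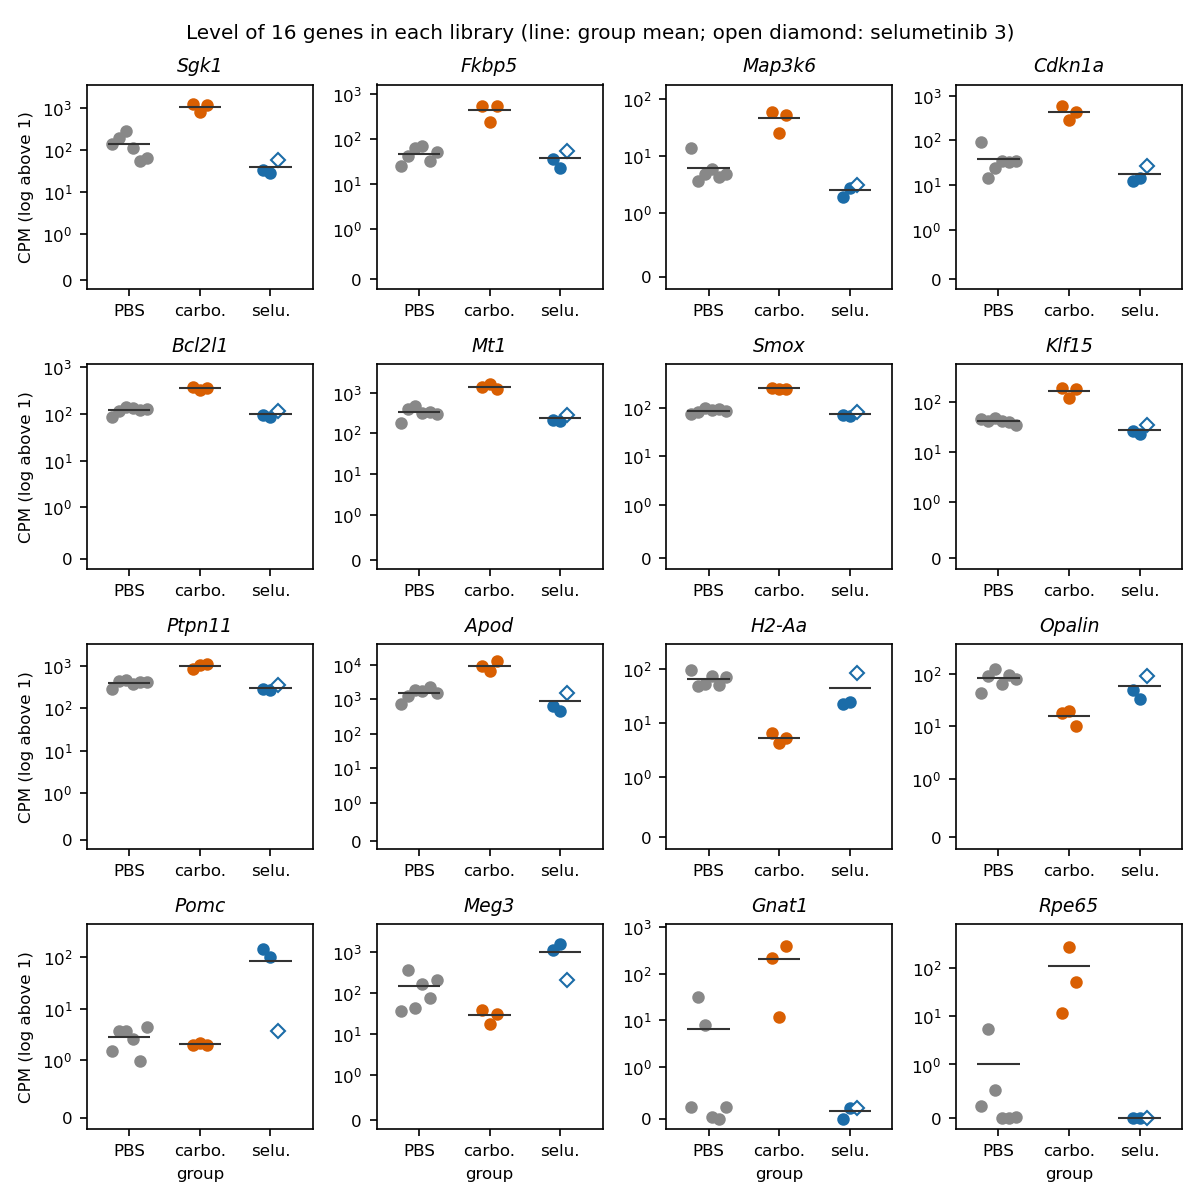
Level of 16 genes in each library, in CPM on an axis that is linear below 1 and logarithmic above. Grey circles are PBS, orange circles carboplatin, blue circles selumetinib 1 and 2 and open diamonds selumetinib 3, and lines mark group means. Carboplatin is above selumetinib in the upper 10 panels, from Sgk1 to Apod, and below it in H2-Aa, Opalin, Pomc and Meg3, where selumetinib 3 is highest for the first pair and lowest for the second.

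Metallothioneins, small cysteine-rich proteins that bind zinc and copper and also platinum, were higher in carboplatin. Of 13 tested genes of metallothioneins and zinc handling 4 were called higher and 0 lower, with a median of 0.27. Over all genes 5.65% were called higher. Mt1 stood at 1335, 1636 and 1219 CPM in carboplatin 1, 2 and 3 and 215, 205 and 288 CPM in selumetinib 1, 2 and 3 (log2 fold change 2.56 ± 0.32, adjusted p = 0.00329). Mt2 was at 499, 595 and 382 CPM against 90.9, 95.6 and 152 CPM (log2 fold change 2.12 ± 0.36, adjusted p = 0.0111). The brain metallothionein Mt3 was at 361, 654 and 380.2 CPM against 164, 175 and 151 CPM (log2 fold change 1.51 ± 0.33, adjusted p = 0.0201). In all 3 genes the carboplatin and selumetinib libraries were separated, and of the 3 only Mt1 was also called against selumetinib 3 alone (adjusted p = 0.00815, against 0.0607 for Mt2 and 0.0777 for Mt3). The zinc importer Slc39a14 rose by less (1.02 ± 0.22). The window of Mt2 (chr8:94172368-94172667, plus strand) held 6 copies of TGCNCNC, searched on both strands and shown in capitals. These letters are looser than the core of the element that the metal-sensing factor MTF1 binds, so a copy need not be such a core. The pattern TGCNCNC is frequent, in 53.6% of all 27025 genes with a window, 63.8% of tested genes and 64.6% of genes called higher. It was in all 10 of the list's genes with a window.
Mt2: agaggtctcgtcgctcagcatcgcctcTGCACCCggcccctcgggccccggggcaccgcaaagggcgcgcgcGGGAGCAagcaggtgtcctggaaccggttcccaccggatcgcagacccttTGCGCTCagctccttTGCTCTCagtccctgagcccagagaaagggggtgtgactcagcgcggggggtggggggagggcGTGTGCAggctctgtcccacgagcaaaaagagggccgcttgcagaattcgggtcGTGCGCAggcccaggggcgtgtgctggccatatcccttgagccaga

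Genes of the NRF2 and glutathione system, which detoxify electrophiles, were higher for 7 of 18 tested members and lower for 0, with a median of 0.63. The share of all genes called higher was 5.65%. Gstm1, a glutathione transferase, was at 438, 336 and 411 CPM against 214, 206 and 157 CPM (log2 fold change 1.04 ± 0.17, adjusted p = 0.00877). Here selumetinib 3 lay below selumetinib 1 and 2, and the call held against it alone (adjusted p = 0.00901). Nqo1, a quinone reductase, was at 36.9, 30.4 and 33.3 CPM against 13.6, 9.34 and 19.8 CPM (log2 fold change 1.24 ± 0.24, adjusted p = 0.0139). Gpx4, which reduces lipid peroxides, differed by 1.22 ± 0.32 on the log2 scale.

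Polyamine metabolism held the smallest adjusted p among the genes named here. Smox (ENSMUSG00000027333, chr2:131491496-131525922) encodes spermine oxidase and stood at 259.7, 246 and 244 CPM in carboplatin 1, 2 and 3 and 71.1, 66.8 and 80.5 CPM in selumetinib 1, 2 and 3 (log2 fold change 1.78 ± 0.14, adjusted p = 0.000264). PBS libraries ran from 73.8 to 96.2 CPM, so carboplatin was alone in its range, and the gene was called against selumetinib 3 alone (adjusted p = 0.00198) and whichever library was left out. Azin1, which protects ornithine decarboxylase, was at 179, 215 and 201 CPM against 103, 102 and 121 CPM (log2 fold change 0.87 ± 0.14, adjusted p = 0.00908). Odc1, ornithine decarboxylase itself, and Sat1, which acetylates polyamines for export, differed by 0.82 ± 0.21 and 1.01 ± 0.28. In all, 4 of 10 tested polyamine genes were higher and 0 lower, with a median of 0.49, where 5.65% of all genes were higher.

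Among genes of FoxO factors and fasting 6 of 20 were higher, beside 5.65% of all genes, and 0 lower, with a median of 0.83. Klf15, a factor of amino acid breakdown that glucocorticoids induce, was at 187, 122 and 185 CPM in carboplatin 1, 2 and 3 and 26.8, 23.3 and 34.5 CPM in selumetinib 1, 2 and 3 (log2 fold change 2.55 ± 0.21, adjusted p = 0.000421). The groups were separated and PBS libraries ran from 35.2 to 47.6 CPM. Foxo3 itself was at 140.4, 95.5 and 135 CPM against 59.5, 51.4 and 69.7 CPM (log2 fold change 1.04 ± 0.17, adjusted p = 0.00877). Txnip, which limits glucose uptake, was at 416, 268 and 387 CPM against 64.00, 51.8 and 131 CPM (log2 fold change 2.12 ± 0.51, adjusted p = 0.0253), and selumetinib 3 lay well above selumetinib 1 and 2. In fatty acid synthesis, Acaca, the gene of acetyl-CoA carboxylase 1, was higher at 489.8, 385 and 618 CPM against 118, 98.2 and 144 CPM (log2 fold change 2.05 ± 0.33, adjusted p = 0.00908). Elovl6, which lengthens saturated fatty acids, was lower at 28.4, 42.4 and 30.5 CPM against 75.2, 69.9 and 91.5 CPM (log2 fold change -1.22 ± 0.29, adjusted p = 0.0252). Both were called against selumetinib 3 alone, with adjusted p of 0.0099 for Acaca and 0.00765 for Elovl6.

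The pathway that selumetinib blocks was read through the transcripts of its feedback genes, which ERK activity raises. Of 11 tested feedback genes (DUSP, Sprouty and SPRED families) 0 were called in either direction with edgeR and 2 had an unadjusted p under 0.05, with a median log2 fold change of 0.06. Over all genes 5782 of 18344 had such an unadjusted p. DESeq2 called 2 of the 11 and limma voom with quality weights 6, where over all genes they called 24.6% and 58.8%. Dusp6, the phosphatase that dephosphorylates ERK, stood at 29.5, 45.3 and 26.2 CPM in carboplatin 1, 2 and 3 and 18.3, 14.4 and 19.7 CPM in selumetinib 1, 2 and 3. All 3 carboplatin libraries lay above all 3 selumetinib libraries, but the difference missed the threshold (log2 fold change 0.95 ± 0.33, adjusted p = 0.0792), and PBS libraries ran from 20.9 to 47.6 CPM. Spry4, a RAS pathway inhibitor, was at 7.68, 12.8 and 5.74 CPM in carboplatin 1, 2 and 3 and 11.6, 8.06 and 7.31 CPM in selumetinib 1, 2 and 3, with overlapping groups (log2 fold change -0.04 ± 0.30, adjusted p = 0.94). Spry1 was at 37.8, 29.4 and 26.9 CPM against 11.4, 13.2 and 18.4 CPM (log2 fold change 1.13 ± 0.58, adjusted p = 0.209). Among 20 tested genes of ERK output 1 was higher and 2 lower, with a median of 0.26, a share of calls near that over all genes (14.0%). Jun was higher at 119, 136 and 89.8 CPM against 54.8, 54.8 and 83.6 CPM (log2 fold change 0.84 ± 0.23, adjusted p = 0.0359). Arc, an activity-induced gene of neurons, was lower at 2.36, 5.18 and 2.57 CPM against 15.5, 14.2 and 21.3 CPM (log2 fold change -2.34 ± 0.41, adjusted p = 0.0117), and the PBS libraries at 13.3, 22.98 and 32.3 CPM (lowest, median and highest) were on the selumetinib side.

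Among 20 tested genes of the RAS and MEK-ERK pathway itself 1 was higher and 3 were lower, where 14.0% of all genes were called. Ptpn11 (ENSMUSG00000043733, chr5:121130533-121191397) encodes SHP2, a phosphatase that carries receptor signals to RAS, and stood at 874, 1083 and 1094 CPM in carboplatin 1, 2 and 3 and 284, 266 and 362 CPM in selumetinib 1, 2 and 3 (log2 fold change 1.74 ± 0.22, adjusted p = 0.00346). PBS libraries lay between 282 and 470.3 CPM, below every carboplatin library, and the gene was called against selumetinib 3 alone (adjusted p = 0.00901). Rasgrp1, a RAS activator found in neurons and lymphocytes, was lower at 3.11, 3.91 and 2.504 CPM against 50.3, 65.3 and 17.7 CPM (log2 fold change -3.80 ± 0.72, adjusted p = 0.0136). Sos1, a second RAS activator, was at 45.1, 50.6 and 48.7 CPM against 87.6, 83.2 and 68.98 CPM (log2 fold change -0.73 ± 0.17, adjusted p = 0.022). The kinase gene Araf was at 112, 96.8 and 126 CPM against 242, 225 and 128 CPM (log2 fold change -0.83 ± 0.22, adjusted p = 0.0359), with selumetinib 3 next to carboplatin 3. Rasgrp1, Sos1 and Araf were not called against selumetinib 3 alone (adjusted p of 0.0759, 0.0702 and 0.452). Nf1 (ENSMUSG00000020716, chr11:79339693-79581612) was at 60.04, 57.4 and 58.8 CPM in carboplatin 1, 2 and 3 and 76.6, 67.8 and 71.2 CPM in selumetinib 1, 2 and 3, and its difference was within the error (log2 fold change -0.29 ± 0.29, adjusted p = 0.532). These counts run over the whole gene and do not show whether an exon is missing.

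MHC class II genes, which present antigen on macrophages, dendritic cells and B cells, were lower in carboplatin. Of 10 tested genes 5 were called lower and 0 higher, with a median log2 fold change of -1.25, where 8.35% of all genes were lower. H2-Aa, a class II chain, was at 6.500, 4.36 and 5.34 CPM in carboplatin 1, 2 and 3 and 22.6, 24.5 and 86.3 CPM in selumetinib 1, 2 and 3 (log2 fold change -3.04 ± 0.50, adjusted p = 0.00983). H2-Eb1 was at 6.56, 5.99 and 5.61 CPM against 21.7, 22.6 and 74.5 CPM (log2 fold change -2.71 ± 0.45, adjusted p = 0.0102). Cd74, the invariant chain, was at 24.9, 18.4 and 19.8 CPM against 54.1, 58.4 and 182 CPM (log2 fold change -2.22 ± 0.44, adjusted p = 0.0155). In these genes selumetinib 3 was at more than 3 times the level of selumetinib 1 and 2 and inside the PBS range, which for H2-Aa ran from 49.0 to 96.1 CPM. The same 5 genes, H2-Aa, H2-Ab1, H2-Eb1, Cd74 and their activator Ciita, were called lower against selumetinib 3 alone, where H2-Aa differed by -4.01 on the log2 scale (adjusted p = 0.000442). Relative to PBS 2 and 3 and PBS 4 to 6 0 of the 10 were called with edgeR and 5 had an unadjusted p under 0.05, with a median of -1.10. There the H2-Aa log2 fold change was -2.65 (adjusted p = 0.0772). Without carboplatin 3, 0 MHC class II genes were called with edgeR and 5 had an unadjusted p under 0.05, and without carboplatin 1 or 2 the number called was 3 or 2. In whole tissue, fewer cells of a type and less RNA per cell cannot be told apart.

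Other markers of blood-borne and resident immune cells moved less uniformly. Ccr2, a receptor of monocytes, was at 1.57, 0.612 and 1.102 CPM against 3.68, 4.15 and 15.01 CPM (log2 fold change -2.78 ± 0.67, adjusted p = 0.0253). Fcrls, a gene of microglia, was at 3.598, 7.58 and 2.404 CPM against 16.8, 18.6 and 21.7 CPM (log2 fold change -2.07 ± 0.45, adjusted p = 0.0195), but it was the only one of 20 tested microglia genes to be called, and their median was 0.54. Of 12 tested T cell genes 2 were lower, and of 15 genes of border macrophages and monocytes 2 were lower, where 8.35% of all genes were lower. MHC class I (14 tested) and interferon genes (17 tested) gave 0 calls with edgeR, with 0 and 1 at an unadjusted p under 0.05, 0 and 1 called by DESeq2 and 9 and 13 by limma voom. Red blood cell genes were lower for 4 of 7, with Hbb-bs, a beta globin gene, at 5.62, 9.22 and 41.2 CPM against 452, 332 and 785 CPM (log2 fold change -4.81 ± 1.29, adjusted p = 0.0353). PBS libraries ran from 121 to 3892 CPM for Hbb-bs, and globin copies are nearly identical, so reads may be shared among them. Without any 1 carboplatin library, selumetinib 1, selumetinib 2 or PBS 5, Hbb-bs was no longer past the threshold.

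Of 30 tested cell cycle genes 2 were higher and 3 lower, with a median of -0.76, a share of calls near that over all genes (14.0%). Cenpf, a kinetochore gene, was at 0.302, 0.449 and 0.467 CPM against 2.300, 1.07 and 2.52 CPM (log2 fold change -2.26 ± 0.64, adjusted p = 0.0418). Mki67, the gene of the Ki-67 antigen, was at 0.756, 0.245 and 0.634 CPM against 3.71, 1.78 and 3.64 CPM (log2 fold change -2.46 ± 0.74, adjusted p = 0.0497). For both, all carboplatin libraries lay below all selumetinib libraries, and below 1 CPM. With 1 library left out, Cenpf stayed past the threshold in 4 of 12 fits and Mki67 in 2 of 12. Without any 1 carboplatin library, selumetinib 1 or selumetinib 2, 0 cell cycle genes were called lower with edgeR. Mcm7, a subunit of the replicative helicase, went the other way at 31.8, 33.7 and 34.3 CPM against 18.8, 18.8 and 19.1 CPM (log2 fold change 0.82 ± 0.14, adjusted p = 0.00983). Ribosomal protein genes had all carboplatin libraries above all selumetinib libraries for 29 of 30, where 20.9% of all genes did. They were called higher for 5 of 30 and lower for 0, with a median of 0.84, where 5.65% of all genes were higher. Rps6 was at 512, 811 and 616 CPM against 280.1, 252 and 288 CPM (log2 fold change 1.24 ± 0.31, adjusted p = 0.0291). Without PBS 1 the number was 28 of the 30, where 14.9% of all genes were called higher, and against selumetinib 3 alone it was 0 with edgeR, with 30 at an unadjusted p under 0.05 (median 0.72).

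**Figure D4:**
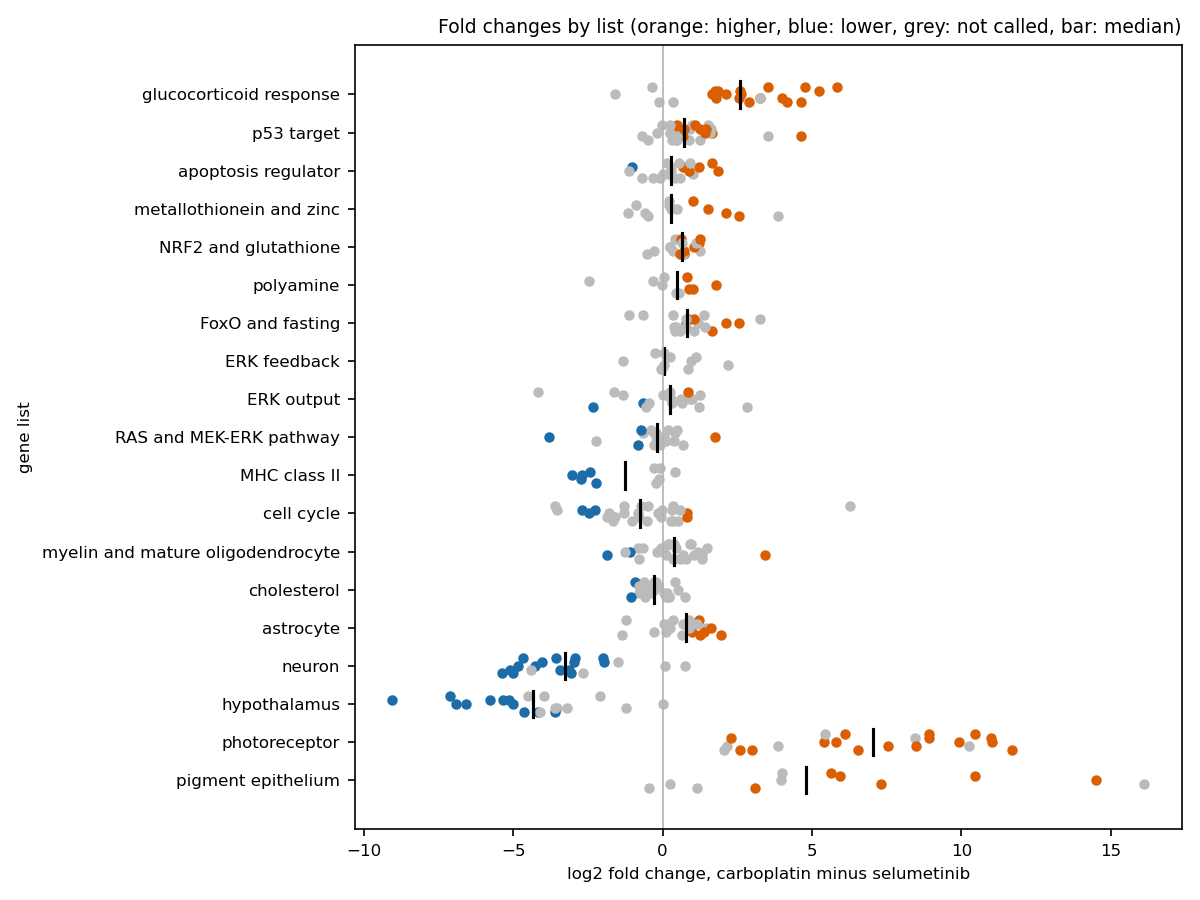
Log2 fold change of every tested member of 19 gene lists (x axis, carboplatin minus selumetinib), with members called higher in orange, called lower in blue and not called in grey, and black bars at the list medians. Glucocorticoid response genes (median 2.57) and eye genes lie to the right, MHC class II (median -1.25) and neuron genes to the left, and ERK feedback genes around 0.

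Oligodendrocyte genes differed between selumetinib 3 and the other libraries of its group. Mbp, a structural protein of myelin, was at 26558, 54855 and 38283 CPM in carboplatin 1, 2 and 3 and 11906, 8274 and 28082 CPM in selumetinib 1, 2 and 3 (log2 fold change 1.31 ± 0.47, adjusted p = 0.0817). It was not called between the groups, whose libraries overlapped. Of 28 tested genes of myelin and mature oligodendrocytes 1 was higher and 2 were lower, where 14.0% of all genes were called. Their median difference was 0.95 from selumetinib 1 and 2 but -0.39 from selumetinib 3. Apod, a lipid carrier, was higher at 8969, 6331 and 12762 CPM in carboplatin 1, 2 and 3 and 624, 444 and 1523 CPM in selumetinib 1, 2 and 3 (log2 fold change 3.44 ± 0.55, adjusted p = 0.00877). Opalin (ENSMUSG00000050121, chr19:41061710-41077113), a membrane protein of the myelin loops, was lower at 18.2, 19.5 and 10.02 CPM in carboplatin 1, 2 and 3 and 49.6, 32.98 and 89.8 CPM in selumetinib 1, 2 and 3 (log2 fold change -1.85 ± 0.43, adjusted p = 0.0239), with PBS at 42.4, 85.7 and 120.05 CPM (lowest, median and highest). Il33, a nuclear cytokine of oligodendrocytes, was at 53.7, 91.96 and 46.2 CPM against 118, 91.4 and 202 CPM, with overlapping groups (log2 fold change -1.10 ± 0.32, adjusted p = 0.0447). Against selumetinib 3 alone 5 genes of the list were lower, among them Opalin, Il33, Ugt8a and Car2, and Apod remained higher. The share of counts from the list was lower in selumetinib 1 and 2 (3.83% and 2.78%), and its part in these differences was not tested.

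Of 26 tested genes of cholesterol synthesis, which supplies myelin, 2 were lower and 0 higher, near the 8.35% lower over all genes, with a median of -0.30. The median difference was -0.11 from selumetinib 1 and 2 and -0.64 from selumetinib 3. Against selumetinib 3 alone 6 were lower, with a median of -0.65. Tm7sf2, a sterol reductase, was at 7.83, 8.36 and 8.01 CPM against 14.5, 20.2 and 16.1 CPM (log2 fold change -1.07 ± 0.17, adjusted p = 0.00851). Dhcr7, which makes cholesterol in the last step, was at 30.1, 27.5 and 22.4 CPM against 43.8, 40.2 and 66.8 CPM (log2 fold change -0.91 ± 0.27, adjusted p = 0.0484). Relative to PBS 2 and 3 and PBS 4 to 6 0 cholesterol genes were called with edgeR and 6 had an unadjusted p under 0.05 (median -0.29).

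Astrocyte genes were higher in carboplatin for 6 of 20, beside 5.65% of all genes, and lower for 0, with a median of 0.78. Without carboplatin 1, carboplatin 3, selumetinib 1 or selumetinib 2, 0 were called with edgeR and 8 to 11 had an unadjusted p under 0.05, and without carboplatin 2 the number called was 3. Agt, angiotensinogen, was at 1055, 872 and 979 CPM in carboplatin 1, 2 and 3 and 288, 244 and 223 CPM in selumetinib 1, 2 and 3 (log2 fold change 1.95 ± 0.37, adjusted p = 0.0137). Its selumetinib libraries were close together, and the call held against selumetinib 3 alone (adjusted p = 0.00462). Glul, glutamine synthetase, was at 3855, 2495 and 3836 CPM against 1362, 1277 and 1646 CPM (log2 fold change 1.25 ± 0.28, adjusted p = 0.0216). Aldh1l1, a general astrocyte marker, was at 144, 128 and 137 CPM against 70.2, 72.3 and 64.2 CPM (log2 fold change 0.99 ± 0.30, adjusted p = 0.0485). Of 16 genes of reactive astrocytes 3 were higher, with C3 at 129.5, 276 and 189.5 CPM against 29.4, 17.3 and 96.9 CPM (log2 fold change 2.05 ± 0.54, adjusted p = 0.034) and the cytokine receptor Osmr at 35.2, 38.3 and 27.9 CPM against 8.28, 5.79 and 18.5 CPM (log2 fold change 1.64 ± 0.41, adjusted p = 0.0287). For C3 and Osmr selumetinib 3 stood above selumetinib 1 and 2, and neither was called against it alone (adjusted p of 0.23 and 0.26). Among newly formed oligodendrocyte genes Sirt2 (1.18 ± 0.29) and Tns3 (1.23 ± 0.35) were higher, and of 14 precursor genes 0 were called with edgeR, 2 at an unadjusted p under 0.05, 1 with DESeq2 and 10 with limma voom. In endothelium, Mfsd2a, the lipid transporter of the blood-brain barrier, was at 93.5, 45.3 and 84.3 CPM against 15.1, 19.7 and 10.8 CPM (log2 fold change 2.29 ± 0.32, adjusted p = 0.0057), and Vwf, von Willebrand factor, at 218, 133 and 173 CPM against 28.5, 16.9 and 69.6 CPM (log2 fold change 2.19 ± 0.44, adjusted p = 0.0161).

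Genes of brain neurons were lower in carboplatin, and their levels were highest in selumetinib 1 and 2. Over all genes 8.35% were called lower. Of 20 tested neuron genes 15 were lower and 0 higher, with a median of -3.28, and against selumetinib 3 alone 0 were called with edgeR and 4 had an unadjusted p under 0.05, with a median of -1.09. Without any 1 carboplatin library, selumetinib 1 or selumetinib 2, 0 of the 20 were called with edgeR and 18 had an unadjusted p under 0.05. Relative to PBS 2 and 3 and PBS 4 to 6, 0 were called and 16 had an unadjusted p under 0.05 (median -3.56). Meg3, a long non-coding RNA abundant in neurons, was at 38.1, 17.2 and 30.3 CPM in carboplatin 1, 2 and 3 and 1152, 1625 and 207 CPM in selumetinib 1, 2 and 3 (log2 fold change -5.12 ± 1.05, adjusted p = 0.0177). Snap25, of the synaptic vesicle fusion complex, was at 51.8, 43.5 and 35.1 CPM against 494, 577 and 74.6 CPM (log2 fold change -3.14 ± 0.88, adjusted p = 0.0396). For Meg3 the selumetinib 3 level lay within the PBS range of 36.2 to 363 CPM. Of 17 tested genes of synapses and excitatory neurons 8 were lower, among them Slc17a6, the glutamate transporter of hypothalamic, thalamic and retinal ganglion neurons, at 2.63, 1.35 and 1.27 CPM against 128, 199 and 6.93 CPM (log2 fold change -5.99 ± 1.43, adjusted p = 0.0252). Of 14 genes of inhibitory neurons 11 were lower, among them Gad2, which makes GABA, at 1.66, 0.897 and 1.002 CPM against 255, 140.3 and 36.1 CPM (log2 fold change -6.91 ± 1.80, adjusted p = 0.0323).

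Hypothalamic genes were lower for 11 of 20 and higher for 0, with a median of -4.34, where 8.35% of all genes were lower. Pomc, the precursor of melanocortins, was at 1.97, 2.202 and 2.003 CPM in carboplatin 1, 2 and 3 and 146, 99.2 and 3.64 CPM in selumetinib 1, 2 and 3 (log2 fold change -5.33 ± 1.06, adjusted p = 0.0159). Agrp, the melanocortin antagonist of feeding neurons, was at 0.605, 0.530 and 0.634 CPM against 20.3, 23.2 and 0.599 CPM (log2 fold change -4.63 ± 1.18, adjusted p = 0.0302). Both were high in selumetinib 1 and 2 and near carboplatin in selumetinib 3. Calcr, the calcitonin receptor, was at 0.0907, 0 and 0 CPM against 28.3, 26.6 and 5.47 CPM. With 3 counts over the carboplatin libraries it could only be called lower. Baiap3, abundant in hypothalamic neurons, was at 11.4, 5.34 and 14.7 CPM against 434, 518 and 56.1 CPM (log2 fold change -5.00 ± 1.18, adjusted p = 0.0247). Avp, the gene of vasopressin, was detected in every library of both groups, at 460.4, 20.4 and 214 CPM against 1034, 299.7 and 292 CPM, with overlapping groups (log2 fold change -1.23 ± 1.17, adjusted p = 0.51). Against selumetinib 3 alone 0 of the 20 were called with edgeR and 4 had an unadjusted p under 0.05. Without any 1 carboplatin library, selumetinib 1 or selumetinib 2, 0 hypothalamic genes were called and 15 to 19 had an unadjusted p under 0.05. Relative to PBS 2 and 3 and PBS 4 to 6 these numbers were 0 and 14 (median -4.11). With the summed levels of photoreceptor, neuron and muscle markers as terms in the model, 0 genes were called over the whole comparison, 1537 had an unadjusted p under 0.05, and Snap25 and Slc17a6 changed sign. Snap25 is part of the neuron sum, and all the sums were separated between the drugs. Drug and marker level therefore cannot be told apart in that fit.

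Genes of the eye were high in carboplatin, and not in the same libraries. Of 22 tested photoreceptor genes 16 were higher and 0 lower, with a median of 7.04, where 5.65% of all genes were higher. That median is the same with the 2 members at 0 counts in selumetinib set to their lower bound. Members with counts near 0 in selumetinib passed the filter through the libraries where they were high, and could not be called lower. Without any 1 carboplatin library, selumetinib 1 or selumetinib 2 the number called was 2 to 4 (medians 6.74 to 7.25). Relative to PBS 2 and 3 and PBS 4 to 6 it was 1, with a median of 2.22. Gnat1, the rod transducin subunit, was at 216, 11.6 and 387 CPM in carboplatin 1, 2 and 3 and 0, 0.213 and 0.214 CPM in selumetinib 1, 2 and 3 (log2 fold change 10.47 ± 3.03, adjusted p = 0.0438). Carboplatin 1 and 3 held most of these counts, and the lowest, median and highest PBS libraries were at 0, 0.233 and 31.6 CPM for Gnat1. Rom1 and Abca4 were more even, at 48.8, 42.1 and 71.4 CPM against 9.66, 10.5 and 13.3 CPM for Rom1 (log2 fold change 2.28 ± 0.34, adjusted p = 0.00708) and 41.4, 39.6 and 67.4 CPM against 6.404, 5.11 and 13.4 CPM for Abca4 (log2 fold change 2.57 ± 0.37, adjusted p = 0.00667). Abca4 was the only photoreceptor gene called against selumetinib 3 alone. Slc24a1, an exchanger of rods, was at 20.8, 68.02 and 48.6 CPM against 0.177, 0.178 and 0.385 CPM (log2 fold change 7.53 ± 1.37, adjusted p = 0.0129), highest in carboplatin 2.

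Pigment epithelium genes peaked in carboplatin 2 and were higher for 6 of 12 and lower for 0, where 5.65% of all genes were higher. Their median was 4.82, and also 4.82 with the 2 members at 0 counts in selumetinib set to their lower bound. Here too, members with counts near 0 in selumetinib, such as Rpe65, could not be called lower. Without carboplatin 2 0 were called with edgeR and 7 had an unadjusted p under 0.05 (median 3.23), and without selumetinib 1 or 2 these numbers were 0 and 8 or 0 and 9. Without carboplatin 1 or 3 the number called was 4 or 1. Relative to PBS 2 and 3 and PBS 4 to 6, 0 were called and 4 had an unadjusted p under 0.05 (median 3.25). Rpe65, the isomerase of the visual cycle, was at 11.4, 261 and 51.5 CPM in carboplatin 1, 2 and 3 and 0, 0 and 0 CPM in selumetinib 1, 2 and 3. With 0 counts in all selumetinib libraries it was at least 2872-fold higher in carboplatin, set against 3 counts over the group. Ttr, a carrier of retinol and thyroid hormone made in pigment epithelium and choroid plexus, was at 25.5, 665 and 66.5 CPM against 2.09, 1.14 and 1.497 CPM (log2 fold change 7.32 ± 1.71, adjusted p = 0.0234). Rlbp1, a retinal binding protein of Muller glia and pigment epithelium, was at 22.2, 242 and 56.02 CPM against 13.4, 14.2 and 19.5 CPM (log2 fold change 2.76 ± 0.71, adjusted p = 0.0313), and it was the only one of 12 genes of other retinal cells to be called. Genes of lens and cornea (12 tested) and of skeletal muscle (18 tested) gave 0 calls with edgeR, with 2 and 3 at an unadjusted p under 0.05, 2 and 0 called by DESeq2 and 8 and 2 by limma voom. Yet 9 and 16 of them had all carboplatin libraries above all selumetinib libraries, where 20.9% of all genes did. Without PBS 1, 3 of the 12 and 17 of the 18 were called higher, where 14.9% of all genes were. Without carboplatin 2 or 3, or without selumetinib 1 or 2, Ttr and Rlbp1 were no longer past the threshold. The shares of these lists move with the libraries, and their part in the levels of other genes was not tested.

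Among called genes, the largest rises were mostly those of eye genes. Of the 15 genes with the largest rise, among called genes with separated groups whose average log2 CPM reached 1, 8 were on the photoreceptor list, such as Gnat1, and 1, Rpe65, on the pigment epithelium list. Others of the 15 were Rbp3, Grk1, Pdc, Aipl1 and Rp1l1, which are also genes of photoreceptors. Many of the 15 had counts near 0 in all selumetinib libraries, so they could only be called higher. Skeletal muscle genes, of which 0 were called with edgeR and 3 had an unadjusted p under 0.05, had a median log2 fold change of 7.87. They are not in this ranking, though without PBS 1 17 of 18 were called higher, where 14.9% of all genes were. The 15 with the largest fall included Prl, Pgr15l, Gpr83, Dgkk and Calcr. Of these, Prl, Pgr15l, Gpr83 and Calcr had at most 3 counts over the carboplatin libraries. They passed the filter through libraries where they were high, and could only be called lower. Prl, the pituitary hormone prolactin, was at 0, 0 and 0.0334 CPM against 3.33, 4.83 and 254 CPM, with PBS 6 at 32.2 CPM. Its call was close to the threshold (edgeR adjusted p = 0.0489) and held in 3 of 12 fits with 1 library left out. Gpr83, a receptor of brain neurons, was at 0, 0 and 0.0334 CPM against 13.3, 36.9 and 2.74 CPM. Dgkk, a diacylglycerol kinase, was at 0.151, 0 and 0.0668 CPM against 55.8, 67.4 and 6.54 CPM. Pgr15l, a G protein-coupled receptor gene, was at 0, 0 and 0 CPM against 10.8, 11.5 and 0.556 CPM, at least 223-fold lower in carboplatin against 3 counts over that group. Prl was highest in selumetinib 3, while the others were highest in selumetinib 1 or 2.

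Selumetinib 3 differed from selumetinib 1 and 2 by at least 2-fold in many genes. Of 11810 genes whose average log2 CPM reached 3 and with selumetinib 1 and 2 within 2-fold of each other, 1187 were at least 2-fold higher in selumetinib 3 and 1146 at least 2-fold lower. Among the 10 furthest above were Prl, at 3.33, 4.83 and 254 CPM in selumetinib 1, 2 and 3, and the shared hormone subunit Cga, at 11.9, 8.31 and 53.9 CPM. The interferon-induced gene Usp18 was at 4.39, 3.09 and 18.4 CPM and the monooxygenase gene Moxd1 at 7.96, 6.18 and 40.3 CPM. Among the 10 furthest below were neuronal genes, with the kinase-like gene Camkv at 168, 194 and 6.800 CPM, the neuropeptide gene Adcyap1 at 50.7, 77.3 and 2.05 CPM, Slc17a6, Sst, Npy and Pomc. The myosin gene Myh7, at 23.3, 18.9 and 0.727 CPM, and the muscle gene Smyd1, at 5.48, 10.7 and 0.128 CPM, were also among them. The skeletal muscle list holds neither gene and took 0.00160%, 0.00303% and 0.00152% of counts in selumetinib 1, 2 and 3. With 1 library on one side these differences have no replicate check.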

How the data were processed

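The samples are 12 RNA-seq libraries from poly(A)-selected RNA, grouped by treatment label. The authors deposited raw counts, 1 column a library, for 35275 Ensembl genes. The submitters' processing notes name mm10 and the tools FastQC, Trimmomatic, STAR, HTSeq and DESeq2. Of versions, annotation release and strand setting, none is given in the sources used here. Coordinates and overlaps came from GENCODE M21 (GRCm38, the same assembly as mm10), which holds 34490 of the IDs.

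Counts were filtered with edgeR 4.0.16 (filterByExpr, at least 10 counts and 15 in total), leaving 18344 genes, and scaled by TMM in R 4.3.3. A robust quasi-likelihood fit over all 12 libraries in 3 groups tested carboplatin minus selumetinib, with Benjamini-Hochberg adjustment over all tested genes and a threshold of 0.05. The common dispersion was 0.272. The SE is the log2 fold change divided by the square root of F. Log2 CPM used a prior count of 2. The fit was also run on simulated counts in which no library stood apart from its group, unlike here, so that run does not test it for these data. Every pair of libraries of a group differed by more than sampling noise.

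The libraries, gene lists and rules were chosen with earlier results of these data known. Of the list symbols 899 matched the table, 1 matched through its ID and 3 did not match. Named genes were up to 15 per direction with the largest fold change among called genes with separated groups, no predicted, clone or Riken symbol and average log2 CPM reaching 1, the 3 smallest p of each list described, chosen genes (among them Nf1, Cdkn1a, Fkbp5, Mt1, Dusp6, Spry4, Opalin and Mbp), the 3 highest members of each eye and brain list, and 10 per direction by the gap of selumetinib 3. Not all of these are reported here, and other list members were named after their values were seen. Alternatives were other scalings and filters, DESeq2 1.42.0, limma 3.58.1 voom, covariates, a replicate term, other controls and each library left out. Deviations of same-numbered carboplatin and selumetinib libraries correlated at 0.0096 to 0.097, so the numbers were not taken as pairs.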

Additional observations from a re-analysis of the deposited data

Results flagged for a closer look

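Among the 6 PBS libraries, PBS 2 lay far above the others in photoreceptor genes, at 0.0210% of its counts, where the next highest, PBS 3, held 0.00727%. PBS 1 lay far below the others in genes of myelin and mature oligodendrocytes, at 2.602% of its counts, where the other PBS libraries held 7.92% to 9.08%. In each, the gap to the nearest library divided by the range of the group exceeded the 95% critical value of Dixon's test for 6 samples. These were 2 of 5 marker shares looked at in this way, and chance alone passes about 1 in 20 groups. Groups of 3 were not tested in this way, so the gap of selumetinib 3 is given as values only.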

How the results depend on the processing

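The 2568 calls (1036 higher, 1532 lower) kept within 1.5 times under RLE and upper-quartile factors, without a filter, with 1 CPM in 3 libraries and with only the 6 treated libraries. A fold of at least 2 as well left 601 higher. DESeq2 called 4620 (1821 higher, 2799 lower) and limma voom with quality weights 10788 (5495 and 5293). A term for Y-linked counts gave 4290 (2232 higher). Terms for photoreceptor, neuron and muscle sums gave 0, 0 higher and 0 lower with edgeR, where 1537 genes had an unadjusted p under 0.05. These sums were separated between the drugs, so drug and marker level cannot be told apart there. With the replicate block over the 6 treated libraries 620 were called (340 and 280), but the numbers do not pair the libraries. Selumetinib 3 alone gave 5 (2 and 3), and 516 without PBS 1 as well (278 and 238). Carboplatin 2 alone gave 11 (11 and 0, with 1712 lower at an unadjusted p under 0.05). Relative to PBS 1 to 3 and PBS 4 to 6 there were 22 (21 and 1), and 275 without PBS 1 (202 and 73). Leaving out 1 library gave 134 (without selumetinib 1) to 5974 calls (without PBS 1), 86 to 2702 higher and 45 to 3272 lower. The cause of these shifts was not tested.

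Of 95 genes followed, 5 changed sign in some setting. With the 3 marker sums as terms, log2 fold changes were 1.26 for Spry4, 0.33 for Nf1, 0.93 for Snap25, 0.45 for Slc17a6 and -0.47 for Gnat1. Snap25 and Gnat1 are themselves members of the sums. Spry4 was at 0.24 against selumetinib 3 alone with or without PBS 1, 0.52 with carboplatin 2 alone, 0.16 and 0.23 relative to PBS with and without PBS 1, and between -0.41 and 0.20 with 1 library left out. Nf1 was at 0.18 relative to PBS 1 to 3 and PBS 4 to 6. The 2 fits without PBS 1 that also change the selumetinib libraries or the controls were added after the data were seen. Depth limits genes with 0 to 3 counts in a group, which are given as levels or bounds.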

Other observations

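Some genes that stood out in selumetinib 3 or in single libraries were not called between the drugs. Cwc22, a splicing factor gene, was at 20.1, 66.02 and 93.3 CPM in carboplatin 1, 2 and 3 and 17.4, 11.96 and 279 CPM in selumetinib 1, 2 and 3, and the lowest, median and highest PBS libraries were at 13.5, 100.5 and 235 CPM. Rps3a2, a copy of a ribosomal protein gene, was at 4.96, 7.096 and 7.18 CPM in carboplatin 1, 2 and 3 and 3.93, 2.805 and 36.4 CPM in selumetinib 1, 2 and 3, with PBS at 3.39, 6.74 and 53.6 CPM (lowest, median and highest). The 2 genes were thus also high in some control libraries. Cga, the shared subunit of pituitary hormones, was at 33.5, 0.408 and 7.18 CPM in carboplatin 1, 2 and 3 and was not called (log2 fold change -0.85 ± 2.02, adjusted p = 0.813, edgeR), and it overlaps another annotated gene on the opposite strand. Krt5, a keratin of epithelia, was at 80.99, 12.3 and 100.3 CPM in carboplatin 1, 2 and 3 and 0.142, 0.0355 and 0 CPM in selumetinib 1, 2 and 3, and its highest PBS library, PBS 1, was at 1864 CPM. Aldh3a1, an abundant enzyme of the cornea, was at 37.6, 7.503 and 40.4 CPM in carboplatin 1, 2 and 3 and 1.77, 0.213 and 1.63 CPM in selumetinib 1, 2 and 3, with PBS 1 at 348 CPM. Clic6, a chloride channel gene of choroid plexus, was at 7.04, 111 and 30.4 CPM in carboplatin 1, 2 and 3 and 26.4, 33.3 and 1.67 CPM in selumetinib 1, 2 and 3, with PBS at 1.18, 1.82 and 10.2 CPM (lowest, median and highest).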
